A study of Mus musculus with 6 samples.

Results

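The interleukin genes are the 81 mouse genes of this data set whose symbol starts with Il and a number, with Il33, Il1rl1, Il1rap, Il2ra and pseudogenes left out, of 32285 genes in all. They carry 79 symbols, since Il11ra2 stands for 3 gene identifiers. By role they comprise 36 ligands, 37 receptor chains, 3 decoy receptors, 3 antagonists and 2 other genes. They were counted in nuclei of subcutaneous white adipose tissue by droplet single-nucleus RNA sequencing, in 3 libraries of GPSM1ΔTreg mice (CKO) and 3 libraries of GPSM1f/f mice (FLOX). By the genotype's name, Gpsm1, a modulator of G-protein signalling, is deleted in regulatory T cells of CKO mice, while FLOX mice carry the floxed gene undeleted. None of the sources used here names the Cre driver or the deleted exons. All mice, CKO and FLOX alike, received high-fat food from 7 weeks of age, and the labels give its duration as 12 weeks where the protocol allows 5 to 12. Whether animals were pooled is not stated, so p-values measure the spread between these libraries.

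Interleukins are small secreted proteins through which immune and stromal cells signal to each other over short distances. Most act on receptors built from a specific chain and a shared one, such as the common gamma chain (Il2rg) for IL-2, IL-4, IL-7, IL-9, IL-15 and IL-21, or gp130 (Il6st) for the IL-6 family, and signal through JAK kinases and STAT factors. The IL-1, IL-18 and IL-17 receptors signal instead through adaptor proteins towards NF-kB. In obese fat, IL-1 family cytokines and IL-6 are known from macrophages and progenitors, and IL-4, IL-10 and IL-13 are known for their actions on adipose macrophages.

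After filtering, 56149 of 65162 barcodes were kept, and the CKO libraries were shallower, with 33115565 to 35661879 UMIs (unique molecular identifiers, each 1 captured RNA molecule) against 40745136 to 48460530 in FLOX. Nuclei were grouped into 29 clusters without using the interleukin genes, and clusters were named from marker genes, so "T-cell-like" means a name that rests on markers alone. The libraries differed in make-up. B-cell-like nuclei were 38.9, 12.4 and 19.9% of CKO nuclei, against 2.03, 1.04 and 5.13% of FLOX nuclei, and T-cell-like nuclei were 13.4, 4.10 and 8.10% of CKO nuclei, against 2.15, 1.04 and 1.75% of FLOX nuclei. In 7 clusters no name was given, and they held 32.8% of FLOX3, where a low-count cluster closest to adipocytes stood apart, 8.47% of CKO3 and 1.57 to 3.08% of the other libraries. Pairs of libraries shared 24 to 44 barcodes. Gpsm1 itself had 38.5, 38.4 and 33.8 CPM in CKO libraries, against 26.9, 31.1 and 23.7 CPM in FLOX libraries in whole tissue. In T-cell-like nuclei it had 20.0, 21.9 and 19.9 CPM in CKO libraries, against 30.4, 49.6 and 18.8 CPM in FLOX libraries, where the groups overlapped, and these 3′ tags need not lie in the deleted part. Levels below are CPM, the UMIs of a gene scaled to the total of its class and library, in the order of libraries 1, 2 and 3, and are not corrected for gene length, so each gene is compared between classes or groups and not with other genes.

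Many of the ligands were rare in these nuclei. Of the 36 ligands, 29 had a UMI in a kept nucleus and 14 of these had fewer than 100 UMIs in all. No UMI was seen for 11 of the 81 genes: the ligands Il3, Il9, Il17a, Il20, Il22, Il1f8 and Il1f10, the antagonist Il1f5 and all 3 identifiers of Il11ra2. A count of 0 of 56149 nuclei allows a share of up to 0.00534% of nuclei with a UMI, for counting error only. In the following, levels over cell classes describe where a gene was counted, over the 9 classes with at least 20 nuclei in every library, and were not tested.

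Il34, which encodes a second ligand of the macrophage growth factor receptor CSF1R, was highest in mural-like nuclei (pericytes and smooth muscle) at 779.7, 896 and 801 CPM in CKO and 517, 821 and 560.1 CPM in FLOX. Its next class, ASPC-like nuclei (adipose stem and progenitor cells), had 34.0 ± 6.92 CPM (SD over 6 libraries), and no library of it reached the lowest mural-like value. Il15, the cytokine that sustains NK cells and memory T cells, had 703, 149 and 886 CPM in CKO and 242, 72.9 and 350.1 CPM in FLOX in dendritic-like nuclei, a class of 32 to 206 nuclei per library whose libraries scattered widely. It had 253, 249.8 and 229.8 CPM in CKO and 206, 242 and 231 CPM in FLOX in macrophage-like nuclei and 199, 174 and 144 CPM in CKO and 142, 177 and 149.6 CPM in FLOX in endothelial-like nuclei, where the libraries lay closer together. Il18, an IL-1 family cytokine released after inflammasome cleavage, was counted at 93.5 ± 17.7 CPM in ASPC-like nuclei, 64.4 ± 12.5 CPM in dendritic-like and 49.1 ± 7.53 CPM in macrophage-like nuclei.

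Il16, a chemoattractant for CD4-bearing cells, was highest in macrophage-like nuclei at 191, 123 and 147 CPM in CKO and 96.1, 123 and 119.6 CPM in FLOX. Il10, the anti-inflammatory cytokine, had 266 of its 321 UMIs there, at 9.88, 10.0 and 9.10 CPM in CKO and 11.0, 10.5 and 6.27 CPM in FLOX. The IL-1 receptor antagonist Il1rn had 564 of its 666 UMIs in the same class. Il7, the survival factor of lymphocytes, was highest in adipocyte-like nuclei at 18.0 ± 3.54 CPM among the 9 classes compared. Outside these, it was higher in the small lymphatic endothelial-like cluster, at 134 to 341 CPM in the 4 libraries with at least 20 nuclei of it, and in an unnamed cluster led by Pcdh15 and Cxcl13, at 174 to 189 CPM in CKO1 and CKO3. Of Il12a, the smaller IL-12 subunit, 361 of 499 UMIs lay in B-cell-like nuclei, and of Il12b, the larger subunit, 65 of 77 UMIs lay in dendritic-like nuclei. Il4i1, an amino acid oxidase named for its induction by IL-4, had 557, 0 and 426 CPM in CKO and 27.6, 231 and 122 CPM in FLOX in dendritic-like nuclei and 127, 94.5 and 106 CPM in CKO and 65.0, 55.8 and 65.5 CPM in FLOX in B-cell-like nuclei. The plot of members by class shows ligands and receptors side by side.

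**Figure D1:**
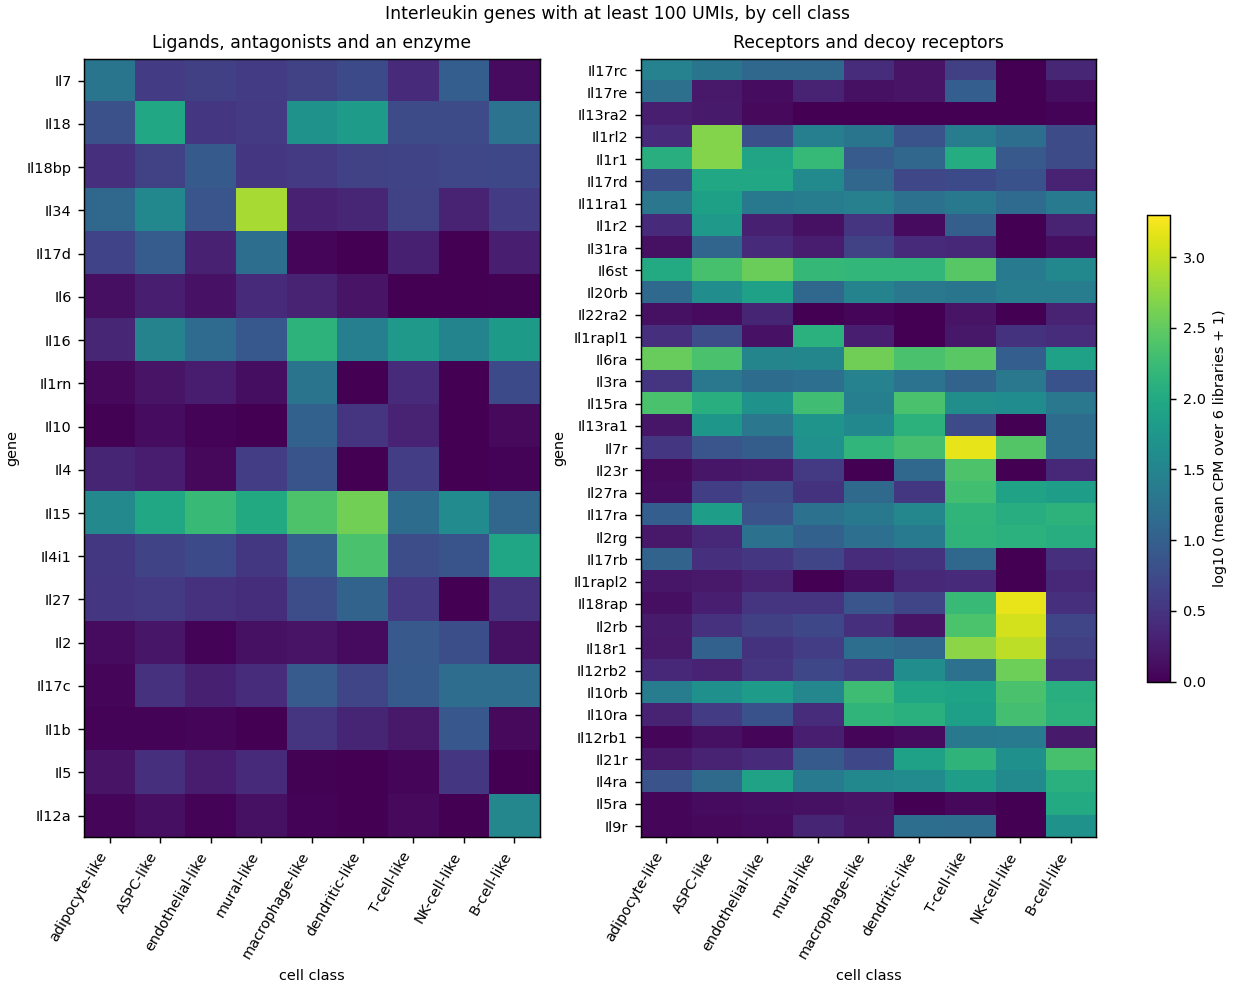
Heat map of the 53 interleukin genes with at least 100 UMIs (rows), with ligands, antagonists and Il4i1 on the left and receptors on the right, over 9 cell classes (columns). Colour is log10 of the mean CPM over the 6 libraries plus 1. Bright fields mark Il34 in mural-like, Il7r in T-cell-like, Il18rap and Il2rb in NK-cell-like and Il1r1 and Il1rl2 in ASPC-like nuclei; levels of rare genes in the small NK-cell-like class, such as Il1b with 2 UMIs there, rest on single molecules.

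Receptors were counted in every class. In ASPC-like nuclei, Il1r1, the signalling IL-1 receptor, had 414, 579.5 and 515 CPM in CKO and 467, 506 and 430.0 CPM in FLOX. Il1rl2, the receptor of the IL-36 cytokines, had 512, 620.0 and 591 CPM in CKO and 428, 429.7 and 349.7 CPM in FLOX, and 17761 of its 19228 UMIs lay in this class. For both genes the lowest ASPC-like library was above the highest library of the next class. The decoy receptor Il1r2, which binds IL-1 without signalling, had 2120 of 2523 UMIs in ASPC-like nuclei. Il11ra1, the IL-11 receptor chain, was also highest there at 74.6 ± 14.5 CPM, and Il6ra, the IL-6 binding chain, had 238, 212 and 289 CPM in CKO and 194, 189 and 234 CPM in FLOX.

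Il6ra was counted at similar levels in macrophage-like nuclei (394, 413 and 479 CPM in CKO and 344, 330.2 and 350.3 CPM in FLOX) and adipocyte-like nuclei (312, 299.5 and 382 CPM in CKO and 369, 320.1 and 342 CPM in FLOX). In adipocyte-like nuclei Il15ra, which presents IL-15 to neighbouring cells, had 271, 229 and 243 CPM in CKO and 189, 171 and 226 CPM in FLOX, and Il1r1 had 81.2, 137 and 168 CPM in CKO and 109.9, 128 and 97.7 CPM in FLOX. Dendritic-like nuclei had 475, 45.8 and 555 CPM in CKO and 77.2, 24.3 and 179 CPM in FLOX of Il15ra, and mural-like nuclei 204, 189.7 and 178 CPM in CKO and 223, 205 and 149.5 CPM in FLOX of Il15ra and 183, 124 and 167 CPM in CKO and 145, 139.9 and 223 CPM in FLOX of Il1r1. Il17rc, a chain of the IL-17 receptor, was highest in adipocyte-like nuclei, whose lowest library (25.3 CPM) exceeded every ASPC-like library. Among the classes compared, Il6st was highest in endothelial-like nuclei. It had 483, 393 and 347 CPM in CKO and 297, 351 and 311 CPM in FLOX there. Outside these classes, it had 598 to 802 CPM in the small lymphatic endothelial-like cluster, over the 4 libraries with at least 20 nuclei of it. In the Frmpd4-led epithelial-like cluster it had 464 to 728 CPM, also over 4 libraries with that many nuclei. In endothelial-like nuclei Il17rd, an inhibitory IL-17 receptor family member, had 96.6, 92.8 and 93.4 CPM in CKO. In FLOX it had 81.3, 94.0 and 84.5 CPM there. It averaged 90.5 ± 6.05 CPM in endothelial-like nuclei and 90.5 ± 6.45 CPM in ASPC-like nuclei (SD over 6 libraries). Il10rb, the shared chain of IL-10 family receptors, had 189, 184 and 185 CPM in CKO and 194, 183 and 182 CPM in FLOX in macrophage-like nuclei, a narrow range. In NK-cell-like nuclei Il10rb averaged 223 CPM and scattered more, from 144 to 291 CPM.

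Other receptors were abundant in T-cell-, NK-cell- or B-cell-like nuclei. Il7r, the IL-7 receptor, had 1836, 1275 and 1839.7 CPM in CKO and 1071, 1447 and 1592 CPM in FLOX in T-cell-like nuclei, where Il6ra had 342, 309.5 and 338 CPM in CKO and 189, 227 and 316 CPM in FLOX. In NK-cell-like nuclei Il2rb, the IL-2 and IL-15 receptor beta chain, had 1191, 1273 and 1434 CPM in CKO and 1276, 863 and 1089.9 CPM in FLOX. The IL-18 receptor chains there were Il18rap with 1425, 1619 and 1486 CPM in CKO and 1331, 1397 and 2015 CPM in FLOX and Il18r1 with 1093, 816 and 968 CPM in CKO and 826, 690.4 and 1172 CPM in FLOX. B-cell-like nuclei had 226, 230.1 and 228 CPM in CKO and 176, 237 and 227 CPM in FLOX of Il21r, the IL-21 receptor, with 143, 157 and 117 CPM in CKO and 119, 153 and 118 CPM in FLOX of Il17ra and 149, 119 and 123 CPM in CKO and 111, 160.4 and 134 CPM in FLOX of Il10ra. In NK-cell-like nuclei Il10ra averaged 208 CPM, from 144 to 318 CPM. Outside the classes compared, Il17ra and Il10ra were both higher in an unnamed cluster led by Chil3, as given below. Il5ra, the IL-5 receptor chain, had 1089 of its 1287 UMIs in B-cell-like nuclei, and the next class averaged 0.515 CPM. Il23r, which with Il12rb1 forms the IL-23 receptor, had 806 of 1029 UMIs in T-cell-like nuclei.

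Members also differed between clusters of 1 class. These comparisons describe the clusters, since the same nuclei defined them. Of the ASPC-like clusters, the Sema3e-led one, which also had Pi16 among its leading genes, held more Il18 (128 to 178 CPM over the 6 libraries) than the Pde11a-led one (16.0 to 33.9 CPM). Il1rl2 followed the same order (462 to 834 CPM against 257 to 424 CPM). Il1r1 ran the other way, with 269 to 413 CPM in the Sema3e-led and 563 to 743 CPM in the Pde11a-led cluster, and so did Il11ra1 (27.1 to 77.3 CPM against 91.5 to 125 CPM). In an unnamed cluster led by Pcdh15 and Cxcl13, Il1r1 reached 1142 CPM in CKO1 and 913 CPM in CKO3, the 2 libraries with at least 20 nuclei of it.

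Among macrophage-like clusters, the Atp6v0d2-led one, whose leading genes include Gpnmb and Mmp12, held 534 of the 564 Il1rn UMIs of the class and 321 to 425 CPM of Il7r, against 1.98 to 7.33 CPM in the F13a1-led cluster. The F13a1-led cluster, which includes Cd163 and Mrc1 among its leading genes, had 226 to 310.0 CPM of Il16, against 18.2 to 26.8 CPM in the Atp6v0d2-led cluster. Il1b, the inflammatory cytokine, had 123 UMIs in all, of which 34 were in an unnamed Chil3-led cluster and 29 in the Fcrls-led macrophage-like cluster. Il6ra was highest in the Gabrr2-led adipocyte-like cluster (483 to 542 CPM), while the Nnat-led and Mageb18-led clusters had 233 to 333 CPM and 179.9 to 285 CPM. Il6st stood at 1013 to 1677 CPM in the Aqp1-led endothelial-like cluster, which includes Selp and Vwf, and at 146 to 281 CPM in the Car4-led one.

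In the summed whole tissue, the CKO libraries lay above the FLOX libraries for many receptors that are counted mainly in lymphocytes, but no interleukin gene passed the test. Of 57 members tested with edgeR, 0 passed an adjusted p of 0.05, against 0.0415% of all genes tested. At an unadjusted p under 0.05 there were 26 members, against 28.4% of all genes, and DESeq2 called 19, against 17.7% of all genes. The groups did not overlap for 24 members that were higher in CKO (25.4% of all genes) and 4 that were lower, against 36.3% of all genes in either direction. The median log2 fold change was 0.34 over the members and 0.01 over all genes. In such sums, fewer nuclei of a type and less RNA per nucleus cannot be told apart. The unnamed cluster led by Pcdh15 and Cxcl13, which also has Ccl19 among its leading genes, held 142, 13 and 75 nuclei in CKO libraries, against 0, 0 and 8 in FLOX libraries. CXCL13 and CCL19 are known as chemokines of lymph node stroma, and the labels do not say whether lymph nodes were removed from the tissue. The part of the B- and T-cell-like shares and of this cluster in the whole-tissue values was not tested.

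For Il21r, a receptor of activated B and T cells, the whole-tissue level was 61.5, 15.4 and 48.1 CPM in CKO libraries, against 2.39, 1.77 and 8.76 CPM in FLOX libraries (log2 fold change 3.20, adjusted p = 0.0686). Il9r, the IL-9 receptor, had 11.6, 2.69 and 5.86 CPM in CKO libraries, against 0.519, 0.413 and 0.884 CPM in FLOX libraries (log2 fold change 3.4, adjusted p = 0.0618). The groups were apart for both genes, and CKO1 was the highest library while CKO2 lay closest to FLOX. Il2rg had 44.5, 12.5 and 28.3 CPM in CKO libraries, against 5.34, 3.86 and 7.71 CPM in FLOX libraries, and Il27ra, the IL-27 receptor, had 35.3, 11.0 and 23.0 CPM in CKO libraries, against 4.59, 3.07 and 5.37 CPM in FLOX libraries. Il4i1 had 46.5, 7.37 and 25.1 CPM in CKO libraries, against 2.85, 2.87 and 5.84 CPM in FLOX libraries, and Il12a had 6.24, 1.75 and 4.68 CPM in CKO libraries, against 0.208, 0.371 and 0.957 CPM in FLOX libraries. CKO1 was highest and CKO2 lowest of the CKO libraries for all 6 genes. The shares of B-cell-, T-cell- and dendritic-like nuclei had this same order, and the part of any of them was not tested. Il5ra had 13.6, 5.16 and 12.9 CPM in CKO libraries, against 0.602, 0.392 and 3.85 CPM in FLOX libraries, Il2rb had 25.7, 7.31 and 20.1 CPM in CKO libraries, against 7.08, 2.41 and 4.34 CPM in FLOX libraries, and Il12rb1, a chain shared by the IL-12 and IL-23 receptors, had 1.51, 0.785 and 1.54 CPM in CKO libraries, against 0.312, 0.186 and 0.564 CPM in FLOX libraries.

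Lower and non-overlapping in CKO were 4 members, none of which passed. Il1rn had 0.723, 2.36 and 0.785 CPM in CKO libraries, against 5.07, 3.49 and 3.02 CPM in FLOX libraries (log2 fold change -1.67, adjusted p = 0.0934). The other members with lower and non-overlapping CKO libraries were Il17rc (-0.39), Il17d (-0.74) and Il34 (-0.28 on the log2 scale). Macrophage-like nuclei were 7.36, 15.9 and 12.0% of CKO nuclei, against 25.3, 25.2 and 12.5% of FLOX nuclei, and mural-like nuclei were 0.587, 0.841 and 0.790% of CKO nuclei, against 2.22, 2.10 and 1.36% of FLOX nuclei; the part of these shares in the lower values was not tested.

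Split by the class of their highest level, the 29 tested members highest in a T-cell-, B-cell-, NK-cell- or dendritic-like class had a median log2 fold change of 0.92, and 27 of them were positive. The other 28 had a median of 0.09, and 17 were positive. For rare genes the highest class rests on few molecules. Il1b is among the 29 with 123 UMIs in all, and 34 of these lay in the Chil3-led cluster outside the classes compared. The more abundant Il17ra and Il10ra are also among the 29, and had 489 to 634 and 403 to 523 CPM in that cluster. The same split over all genes tested gave a median of 0.15 over 8895 genes highest in those 4 classes, of which 72.5% were positive, and -0.13 over 10400 other genes, of which 33.1% were positive. When only adipocyte-, ASPC-, endothelial-, mural- and macrophage-like nuclei were summed, the median of the lymphoid and dendritic members was 0.22 over 23 members tested and that of the others 0.07 over 27. In that sum 3 of 50 members passed the test, Il17ra, Il18 and Il1rl2, all higher in CKO, against 1.56% of all genes. Without CKO2, 20 of 60 members tested passed in the whole tissue, against 17.4% of all genes, and without any other single library 0 passed. The plot of whole-tissue fold changes shows each of the 57 members.

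**Figure D2:**
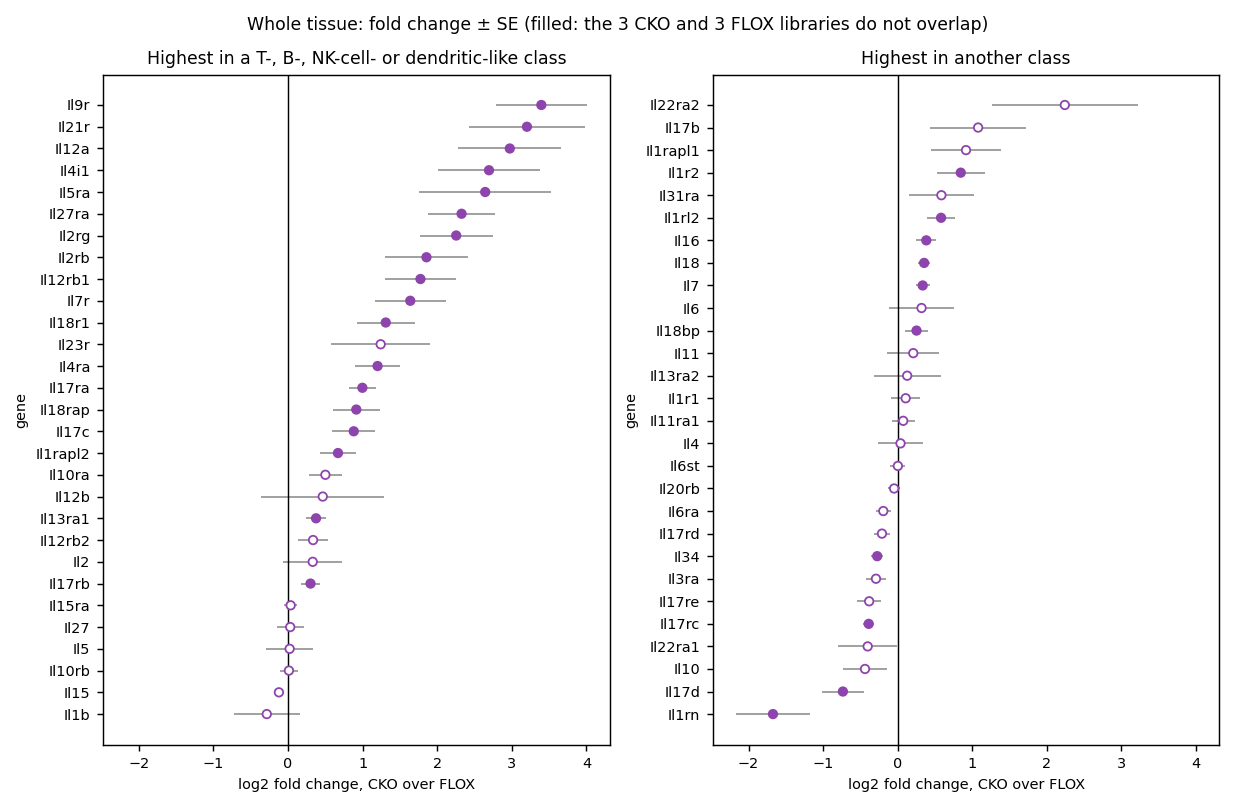
Log2 fold change of CKO over FLOX in whole tissue (horizontal axis) with its SE as bars, for 29 members whose highest class is T-cell-, B-cell-, NK-cell- or dendritic-like (left) and 28 other members (right). Filled points mark members whose 3 CKO and 3 FLOX libraries do not overlap; 27 of 29 points on the left and 17 of 28 on the right lie above 0, and none passed the adjusted test.

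The classic cytokines were too rare in whole tissue to compare closely. Il10 had 0.995, 1.21 and 1.23 CPM in CKO libraries, against 1.89, 1.51 and 0.982 CPM in FLOX libraries, and Il4, the type 2 cytokine, had 1.75, 1.54 and 2.02 CPM in CKO libraries, against 2.08, 1.77 and 1.01 CPM in FLOX libraries. Il5, the eosinophil growth factor, had 0.542, 0.846 and 0.533 CPM in CKO libraries, against 0.561, 0.722 and 0.491 CPM in FLOX libraries. Il6 had 0.422, 0.815 and 0.505 CPM in CKO libraries, against 0.623, 0.433 and 0.245 CPM in FLOX libraries, and Il2, the growth factor of T cells, had 0.693, 0.332 and 0.673 CPM in CKO libraries, against 0.519, 0.289 and 0.466 CPM in FLOX libraries. Il1b had 0.392, 0.785 and 0.252 CPM in CKO libraries, against 0.644, 0.475 and 0.515 CPM in FLOX libraries. These groups overlapped for all 6 genes. Il13 was counted 9 times in CKO and 7 times in FLOX and was not tested, with 0.0301, 0.211 and 0.0280 CPM in CKO libraries, against 0.0623, 0.0413 and 0.0491 CPM in FLOX libraries. At this depth no difference could be shown for these cytokines. Among the more abundant members, Il6st had 149, 164 and 131 CPM in CKO libraries, against 135, 132 and 150.5 CPM in FLOX libraries and Il1r1 123, 194 and 187 CPM in CKO libraries, against 147, 166 and 128 CPM in FLOX libraries, and both overlapped. Il18 had 30.3, 29.4 and 29.9 CPM in CKO libraries, against 20.4, 23.2 and 22.5 CPM in FLOX libraries and Il4ra 45.0, 23.9 and 39.3 CPM in CKO libraries, against 15.8, 10.3 and 18.4 CPM in FLOX libraries, without overlap. Il7r had 161, 43.0 and 142 CPM in CKO libraries, against 40.1, 27.5 and 37.1 CPM in FLOX libraries, and its lowest CKO library was CKO2.

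T-cell-like nuclei were the class with the most members that passed the test. The make-up of this class also differed between the groups, and fewer members passed within its finer clusters, as given below. Of 19 members tested, 6 passed the test, 4 lower and 2 higher in CKO, against 3.70% of all genes tested in this class. The libraries did not overlap for 11 of the 19, against 19.7% of all genes, and for 5 of these CKO was higher, against 9.51%. The lower genes were Il1r1, Il23r and both chains of the IL-18 receptor, and the higher genes were Il21r and Il6st. The class held 2450 CKO and 457 FLOX nuclei, with 141029 to 2444383 UMIs per library.

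Il1r1 had 49.5, 67.3 and 50.1 CPM in CKO libraries, against 198, 135 and 156 CPM in FLOX libraries (log2 fold change -1.65, SE 0.200, adjusted p = 4.35e-05). Every CKO library was below every FLOX library. Il18r1, the IL-18 binding chain, had 403, 419 and 360.4 CPM in CKO libraries, against 654, 638 and 754 CPM in FLOX libraries (log2 fold change -0.81, SE 0.125, adjusted p = 4.63e-04). The second IL-18 receptor chain, Il18rap, had 117, 158 and 100.2 CPM in CKO libraries, against 237, 219.8 and 169 CPM in FLOX libraries (log2 fold change -0.77, SE 0.190, adjusted p = 0.0220), with CKO2 closest to FLOX3. Il23r, which keeps IL-17-producing T cells active, had 86.7, 158 and 139 CPM in CKO libraries, against 335, 213 and 491 CPM in FLOX libraries (log2 fold change -1.57, SE 0.296, adjusted p = 0.0221). Its FLOX libraries scattered more than its CKO libraries. Il21r had 169.8, 187 and 169 CPM in CKO libraries, against 103, 106 and 87.6 CPM in FLOX libraries (log2 fold change 0.83, SE 0.180, adjusted p = 0.00985). Il6st had 381, 315 and 321 CPM in CKO libraries, against 195, 170.2 and 285 CPM in FLOX libraries (log2 fold change 0.61, SE 0.168, adjusted p = 0.0438), and FLOX3 came closest to the CKO libraries. Without FLOX1, 2 members passed, Il18r1 and Il1r1. DESeq2 called 4 of the 6 (2.60% of all genes), leaving out Il18rap and Il6st. Over all alternatives, Il1r1 passed in each of 14, while Il6st missed the threshold in 9 of 15 and had the opposite sign in 1 more, and Il18rap missed it in 7 of 14. Il21r missed it in 3 of 15, Il23r in 2 of 14, and Il18r1 in 1 of 15, with the opposite sign in 1 more.

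Il1r1, Il18r1 and Il18rap lie in 1 stretch of chromosome 1, at chr1:40225080-40317257, chr1:40465552-40500854 and chr1:40515362-40551705 on mm10 (GENCODE vM21), together with Il1r2 and Il1rl2. Il23r lies at chr6:67422932-67491855, Il21r at chr7:125603429-125633570, next to Il4ra at chr7:125552120-125579474, and Il6st at chr13:112464070-112510086. The UMI counts are per whole gene and do not separate exons from introns. The 250 bases before the annotated start of the 6 genes are shown because these receptors passed the test in the same class. They are as RefSeq on GRCm38.p6 gives them, 5′ to 3′ on the gene's own strand.
Il1r1: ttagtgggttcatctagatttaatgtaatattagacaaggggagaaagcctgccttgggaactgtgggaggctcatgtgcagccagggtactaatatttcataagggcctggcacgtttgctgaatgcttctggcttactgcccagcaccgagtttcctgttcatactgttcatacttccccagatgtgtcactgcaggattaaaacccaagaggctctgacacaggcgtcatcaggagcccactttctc
Il18r1: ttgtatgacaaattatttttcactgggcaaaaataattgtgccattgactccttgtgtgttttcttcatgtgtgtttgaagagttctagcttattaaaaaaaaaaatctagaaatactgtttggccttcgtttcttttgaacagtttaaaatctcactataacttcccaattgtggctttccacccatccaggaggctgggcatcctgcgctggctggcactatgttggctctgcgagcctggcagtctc
Il18rap: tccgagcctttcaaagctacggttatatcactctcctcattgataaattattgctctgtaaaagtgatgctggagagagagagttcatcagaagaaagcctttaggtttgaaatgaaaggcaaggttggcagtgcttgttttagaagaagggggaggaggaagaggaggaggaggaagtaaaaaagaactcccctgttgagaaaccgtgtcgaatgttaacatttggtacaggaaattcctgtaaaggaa
Il23r: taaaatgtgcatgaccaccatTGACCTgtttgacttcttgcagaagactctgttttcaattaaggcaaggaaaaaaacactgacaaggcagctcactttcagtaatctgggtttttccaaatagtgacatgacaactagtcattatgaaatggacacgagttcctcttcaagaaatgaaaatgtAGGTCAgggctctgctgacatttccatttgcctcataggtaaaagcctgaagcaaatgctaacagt
Il21r: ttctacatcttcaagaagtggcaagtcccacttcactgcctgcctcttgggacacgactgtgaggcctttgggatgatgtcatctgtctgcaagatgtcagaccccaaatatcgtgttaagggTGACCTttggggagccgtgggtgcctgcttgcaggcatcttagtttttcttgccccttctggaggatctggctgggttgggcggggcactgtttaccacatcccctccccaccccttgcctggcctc
Il6st: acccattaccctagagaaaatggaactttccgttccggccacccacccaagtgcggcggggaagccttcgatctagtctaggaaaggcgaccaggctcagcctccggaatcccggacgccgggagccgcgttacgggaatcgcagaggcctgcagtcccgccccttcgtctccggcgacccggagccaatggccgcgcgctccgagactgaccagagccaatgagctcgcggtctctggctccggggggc
The windows are chr1:40224830-40225079 (+ strand) for Il1r1, chr1:40465302-40465551 (+ strand) for Il18r1, chr1:40515112-40515361 (+ strand) for Il18rap, chr6:67491856-67492105 (- strand) for Il23r, chr7:125603179-125603428 (+ strand) for Il21r and chr13:112463820-112464069 (+ strand) for Il6st. Capitals mark AGGTCA or its reverse complement, the half-site bound by ROR and other nuclear receptors. It was present in the Il23r window on both strands, starting 229 and 66 bases before the start, and in the Il21r window 127 bases before it, while 14.0% of all 32851 promoter windows of this length hold it. The letters TGANTCA (AP-1, 6.75% of windows), TTCNNNGAA (STAT, 7.02%) and AGGTGT (T-box half-site, 11.8%), searched on both strands, were not in the 6 windows.

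The make-up of the T-cell-like class differed between the groups. At a finer resolution it split into a cluster led by Lef1 and a cluster led by Gzma, a split made after the values were seen. The Gzma-led cluster held 1461 nuclei in all and was closest to NK cells by markers, with T-cell markers as well. Its leading genes included Ncr1, Klrb1c and the member Il18rap, and they were drawn from all its nuclei. Below, "Gzma-led nuclei" are only those of its nuclei that belong to the T-cell-like class. The Lef1-led cluster held 65.0, 56.6 and 66.8% in CKO libraries, against 30.2, 37.9 and 47.9% in FLOX libraries of the class. Il23r was counted once in the Lef1-led nuclei, and Il1r1 16 times, so both came almost wholly from the Gzma-led nuclei. Cd163l1, a scavenger receptor known from gamma delta T cells, had 92.5, 257 and 154 CPM in CKO and 599, 532 and 526 CPM in FLOX over the whole class.

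Within the Gzma-led nuclei (876 in CKO, 283 in FLOX), 2 of the 6 receptors passed the test, of 17 members tested, against 2.46% of all genes. Il1r1 had 125, 153 and 127 CPM in CKO libraries, against 278, 220.0 and 261 CPM in FLOX libraries (log2 fold change -0.97, adjusted p = 0.0100), against a log2 fold change of -1.65 over the whole class. Il6st had 231, 161 and 239.7 CPM in CKO libraries, against 87.0, 69.5 and 133 CPM in FLOX libraries (log2 fold change 1.10, adjusted p = 0.0232). The log2 fold changes that did not pass were -0.49 for Il18r1 (adjusted p = 0.116), -0.89 for Il23r (0.230), -0.26 for Il18rap (0.636) and 0.98 for Il21r (0.0841). Il21r did not overlap between the groups in these nuclei (142, 141 and 122 CPM in CKO and 91.4, 69.5 and 38.9 CPM in FLOX), nor in the Lef1-led nuclei (186, 221 and 196 CPM in CKO and 132, 165 and 150.3 CPM in FLOX). In the Lef1-led nuclei alone, 0 members passed; Il6st had 471, 429.8 and 368 CPM in CKO and 445, 329 and 479.6 CPM in FLOX there and Il18r1 190.4, 147 and 208 CPM in CKO and 132, 219.5 and 150.3 CPM in FLOX, both overlapping. How much of each change over the whole class goes with this make-up was not tested beyond these values. Summed markers of adipocytes in T-cell-like nuclei were 297, 384 and 349 CPM in CKO libraries, against 703, 475 and 444 CPM in FLOX libraries, with all 8 of 8 markers lower in CKO, and those of macrophages were 54.0, 97.6 and 78.9 CPM in CKO libraries, against 189, 142 and 90.7 CPM in FLOX libraries; their part was not tested.

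**Figure D3:**
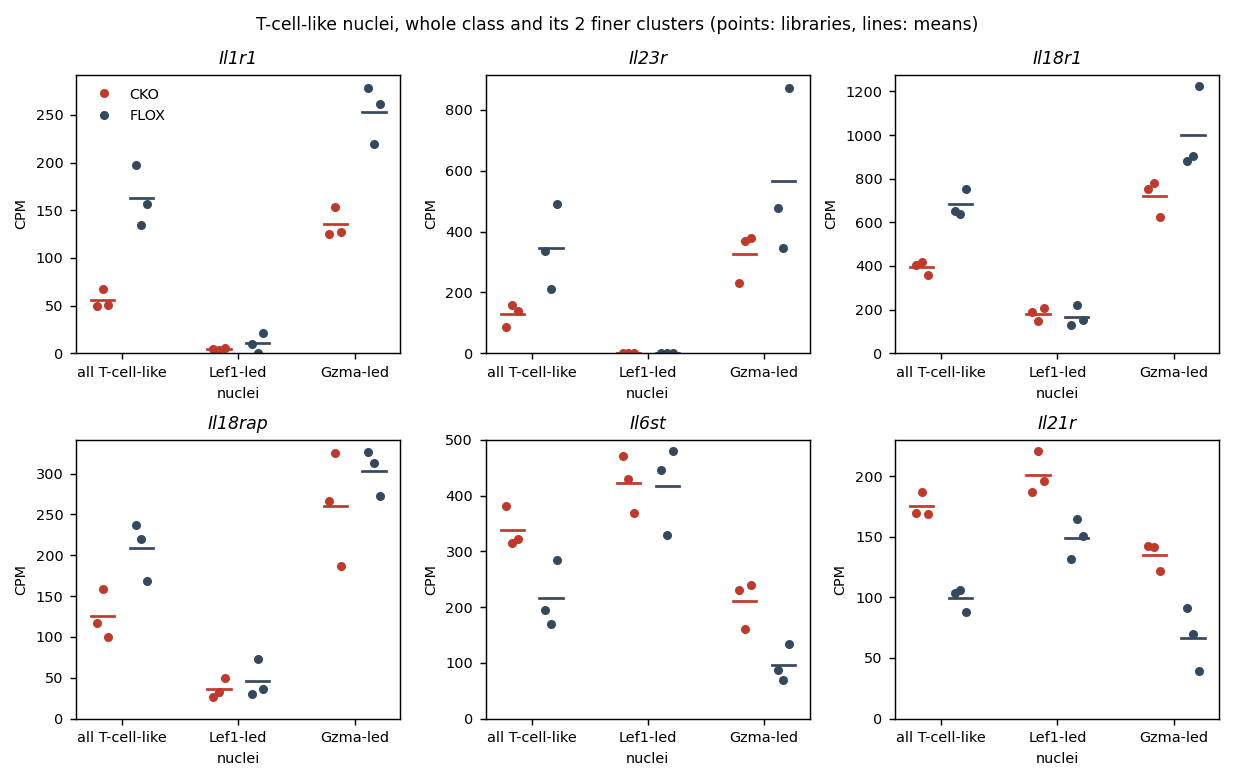
CPM of the 6 members that passed the test in T-cell-like nuclei (vertical axis, from 0), with CKO left of FLOX. Values are shown for all nuclei of the class and for its Lef1-led and Gzma-led finer clusters. Points are libraries and lines are means of 3; Il1r1 and Il23r are near 0 in Lef1-led nuclei, and Il1r1 in Gzma-led nuclei lies between 125 and 153 CPM in CKO and between 220.0 and 278 CPM in FLOX.

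Il10 was counted 9 times in T-cell-like nuclei of CKO, all in Gzma-led nuclei, and 0 times in those of FLOX. The CKO libraries had 2.05, 3.36 and 1.37 CPM, and a count of 0 in 789361 FLOX UMIs allows up to 3.80 CPM, or 0.656% of 457 nuclei with a UMI, so this depth cannot show a difference. Il17a had no UMI in any T-cell-like nucleus, and Il17f had 7 in CKO and 1 in FLOX.

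In macrophage-like nuclei, Il4ra, the receptor chain through which IL-4 and IL-13 act on macrophages, was the 1 member of 34 tested that passed, against 1.53% of all genes in the class. It had 38.2, 50.0 and 38.4 CPM in CKO libraries, against 25.8, 27.2 and 20.1 CPM in FLOX libraries (log2 fold change 0.80, SE 0.153, adjusted p = 0.0347). All CKO libraries were above all FLOX libraries. Over all alternatives, Il4ra missed the threshold in 10 of 16. The call did not hold without CKO1, CKO2, CKO3, FLOX1 or FLOX3 in turn, where the adjusted p ran up to 0.102, nor at Leiden resolution 2 (0.333) or with classes by marker score (0.0719). Of the 34 members, 29 had a positive log2 fold change, with a median of 0.31 against 0.00 over all genes, and DESeq2 called 2 members, Il4ra and Il1rn (3.49% of all genes). The libraries were apart for 10 members that were higher (8.23% of all genes) and 2 that were lower in CKO (19.4% of all genes in either direction).

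The clusters of the class did not have equal shares in the groups. The Atp6v0d2-led cluster made up 16.1, 35.4 and 19.1% in CKO libraries, against 50.1, 43.8 and 39.9% in FLOX libraries, without overlap. In the F13a1-led cluster Il4ra had 45.6, 62.0 and 45.6 CPM in CKO libraries, against 45.6, 40.2 and 30.0 CPM in FLOX libraries (log2 fold change 0.38, adjusted p = 0.802), and in the Atp6v0d2-led cluster it had 16.2, 44.0 and 23.4 CPM in CKO libraries, against 12.8, 15.3 and 11.0 CPM in FLOX libraries (log2 fold change 1.25, adjusted p = 0.123). The groups were apart in the Atp6v0d2-led cluster, and in the F13a1-led cluster CKO and FLOX libraries met near 45.6 CPM. Summed B-cell markers in macrophage-like nuclei were 608, 324 and 502 CPM in CKO libraries, against 265, 277 and 315 CPM in FLOX libraries, with 8 of 8 markers higher in CKO and none at 0. Il4ra was highest in B-cell-like nuclei, and the part of these markers in its change was not tested.

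Il1rn and Il7r, which within this class were counted mostly in the Atp6v0d2-led cluster, had lower levels in the CKO libraries of the class and did not pass the test. Il1rn had 9.45, 17.1 and 7.15 CPM in CKO libraries, against 28.9, 23.7 and 20.6 CPM in FLOX libraries (log2 fold change -1.08, adjusted p = 0.0838). Within the Atp6v0d2-led cluster it had 44.4, 39.5 and 23.4 CPM in CKO and 46.2, 48.0 and 41.4 CPM in FLOX (log2 fold change -0.34, adjusted p = 0.728), where the groups overlapped. Il7r had 108, 151 and 108 CPM in CKO libraries, against 193, 159.7 and 159.7 CPM in FLOX libraries (log2 fold change -0.47, adjusted p = 0.118). Within the cluster its direction was the opposite and the groups were apart, with 386, 353 and 425 CPM in CKO and 325, 321 and 322 CPM in FLOX (log2 fold change 0.26, adjusted p = 0.494). Il6ra and Il17ra were higher in the CKO libraries of the class without overlap and did not pass, at log2 fold changes of 0.34 (adjusted p = 0.109) and 0.58 (0.0830).

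**Figure D4:**
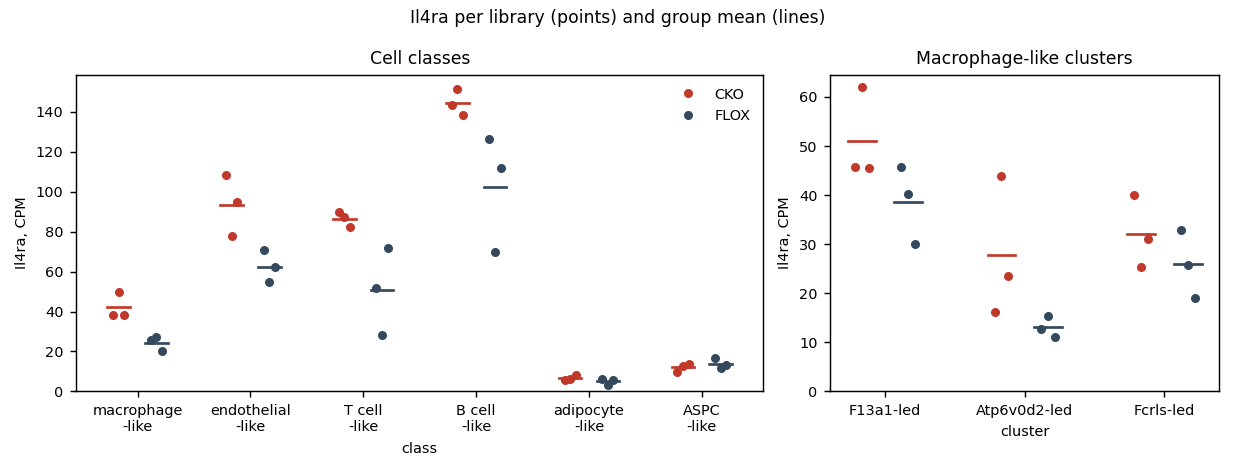
Il4ra in CPM (vertical axis, from 0) in 6 cell classes (left) and in the 3 macrophage-like clusters (right), with CKO left of FLOX. Points are libraries and lines are means of 3; in macrophage-like nuclei the CKO libraries lie between 38.2 and 50.0 CPM, above all FLOX libraries.

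In ASPC-like nuclei, 0 of 34 members passed the test, against 0.246% of all genes, with 7 at an unadjusted p under 0.05 (11.1% of all genes) and 2 called by DESeq2, Il1rl2 and Il1r2 (1.33% of all genes). The libraries were apart for 7 members that were higher (8.44% of all genes) and 3 that were lower in CKO (16.4% of all genes in either direction). Il1rl2 had 512, 620.0 and 591 CPM in CKO libraries, against 428, 429.7 and 349.7 CPM in FLOX libraries (log2 fold change 0.50, adjusted p = 0.0817). Il15ra had 136, 134 and 123 CPM in CKO libraries, against 98.5, 102 and 107 CPM in FLOX libraries (log2 fold change 0.35, adjusted p = 0.102), and Il18 had 123, 95.3 and 102 CPM in CKO libraries, against 72.4, 89.2 and 79.9 CPM in FLOX libraries (log2 fold change 0.39, adjusted p = 0.208). Il1r2 had 53.2, 94.8 and 71.9 CPM in CKO libraries, against 48.4, 49.4 and 28.0 CPM in FLOX libraries. None of these groups overlapped, and in each the CKO libraries were higher. Il34 had the opposite order, with 37.0, 24.5 and 25.9 CPM in CKO libraries, against 40.2, 37.7 and 38.8 CPM in FLOX libraries.

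In adipocyte-like nuclei, 0 of 38 members passed, against 2.54% of all genes, with 12 at an unadjusted p under 0.05 (22.7% of all genes) and 0 by DESeq2 (8.46%). The libraries were apart for 10 members that were higher (21.4% of all genes) and 3 that were lower in CKO (30.6% of all genes in either direction). Il7 had 18.4, 22.7 and 21.5 CPM in CKO libraries, against 16.1, 14.4 and 14.7 CPM in FLOX libraries (log2 fold change 0.40, adjusted p = 0.0845). Il34 had 12.3, 13.2 and 16.5 CPM in CKO libraries, against 8.94, 8.92 and 10.8 CPM in FLOX libraries (log2 fold change 0.48, adjusted p = 0.111), and Il11ra1 18.8, 24.6 and 24.9 CPM in CKO libraries, against 17.2, 14.7 and 15.6 CPM in FLOX libraries (log2 fold change 0.45, adjusted p = 0.0971). All 3 genes were higher in CKO without overlap. Without CKO1, Il11ra1 passed the test. The clusters of the class had unequal shares, with the Nnat-led cluster at 58.1, 69.7 and 60.9% in CKO libraries, against 28.7, 30.0 and 40.7% in FLOX libraries and the Mageb18-led cluster at 18.4, 16.9 and 11.1% in CKO libraries, against 29.4, 33.5 and 29.0% in FLOX libraries, both without overlap. Within clusters, Il7 was higher in CKO without overlap in all 3, and in the Nnat-led cluster it had 20.4, 27.5 and 22.5 CPM in CKO and 18.7, 17.1 and 16.3 CPM in FLOX. Il34 overlapped in the Gabrr2-led cluster (13.8, 15.8 and 21.2 CPM in CKO and 8.69, 11.8 and 13.9 CPM in FLOX) and Il11ra1 in the Nnat-led cluster (18.9, 28.8 and 24.1 CPM in CKO and 24.5, 20.6 and 16.3 CPM in FLOX), and neither overlapped in the other clusters. The part of the cluster shares in the values of the class was not tested. Il17rd was lower in CKO without overlap (-0.52 on the log2 scale, adjusted p = 0.115). Summed B-cell markers in adipocyte-like nuclei were 65.5, 13.3 and 36.8 CPM in CKO libraries, against 4.65, 2.01 and 16.7 CPM in FLOX libraries, with 8 of 8 markers higher in CKO, and their part was not tested.

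**Figure D5:**
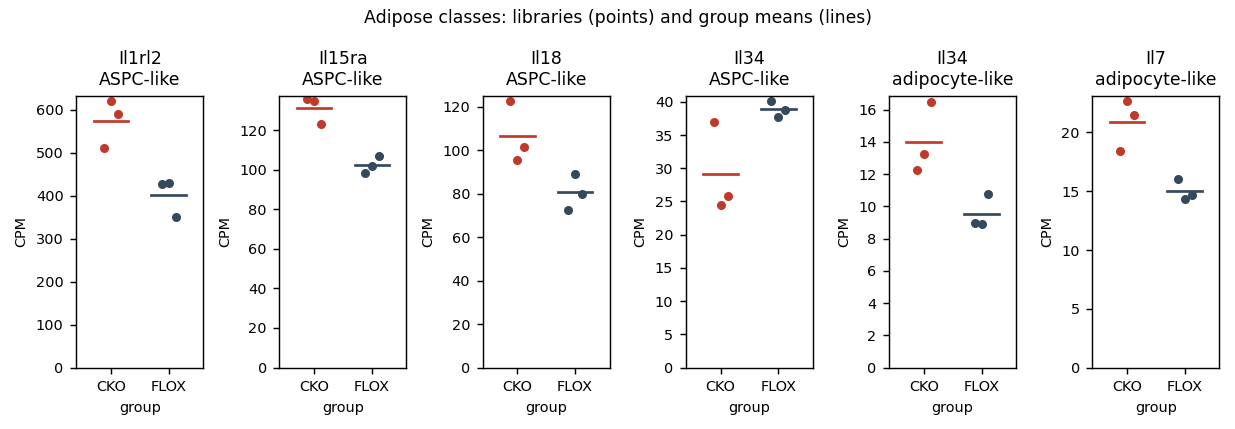
CPM per library (points) and group means (lines) for Il1rl2, Il15ra, Il18 and Il34 in ASPC-like nuclei and for Il34 and Il7 in adipocyte-like nuclei, with CKO left of FLOX and axes from 0. Il34 is lower in CKO in ASPC-like and higher in CKO in adipocyte-like nuclei; none of these passed the adjusted test.

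In endothelial-like nuclei, 0 of 19 members passed, against 0.0857% of all genes, with 4 at an unadjusted p under 0.05 (8.48% of all genes) and 0 by DESeq2 (0.248%). The libraries were apart for 3 members, all higher in CKO (7.90% of all genes, and 14.2% in either direction). Il13ra1, the IL-13 receptor chain that pairs with Il4ra, had 28.8, 24.5 and 23.4 CPM in CKO libraries, against 13.3, 15.8 and 11.8 CPM in FLOX libraries (log2 fold change 0.88, adjusted p = 0.247), and Il4ra had 108, 77.6 and 94.7 CPM in CKO libraries, against 70.6, 54.6 and 62.4 CPM in FLOX libraries (log2 fold change 0.53, adjusted p = 0.276). Neither overlapped. In B-cell-like nuclei, 0 of 23 members passed, against 0.0318% of all genes, with 2 at an unadjusted p under 0.05 (8.58% of all genes) and 0 by DESeq2 (0.138%). The libraries were apart for 3 members, all higher in CKO (8.41% of all genes, and 15.1% in either direction). Il4i1 had 127, 94.5 and 106 CPM in CKO libraries, against 65.0, 55.8 and 65.5 CPM in FLOX libraries (log2 fold change 0.80, adjusted p = 0.176), and Il4ra had 143, 151 and 138 CPM in CKO libraries, against 126, 69.7 and 112 CPM in FLOX libraries, where FLOX1 came close to the CKO libraries.

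Of 72 genes that act beside or downstream of these receptors (JAK kinases and STAT factors, SOCS inhibitors, adaptors of the IL-1, IL-18 and IL-17 receptors, and partner chains without an Il symbol), 47 were tested in T-cell-like nuclei. Lower in CKO and passing were 3 of them, where 193 of all 6889 genes tested in the class passed as lower and 3.70% passed in either direction. Socs2, a feedback inhibitor of cytokine receptors, had 12.7, 26.9 and 22.0 CPM in CKO libraries, against 70.0, 99.3 and 43.8 CPM in FLOX libraries (log2 fold change -1.82, adjusted p = 0.00357). Irak3, an inhibitor of IL-1 and IL-18 receptor signalling, had 9.41, 16.8 and 17.2 CPM in CKO libraries, against 30.4, 42.5 and 43.8 CPM in FLOX libraries (log2 fold change -1.50, adjusted p = 0.0418), and Ifngr1, the interferon gamma receptor chain, had 214, 288 and 196 CPM in CKO libraries, against 502, 383 and 359.8 CPM in FLOX libraries (log2 fold change -0.88, adjusted p = 0.00206). None of these 3 overlapped between the groups. Under the alternatives their largest adjusted p was 0.123 for Socs2, 0.484 for Irak3 and 0.815 for Ifngr1. The make-up of the T-cell-like class differed between the groups, as given above, and its part in these 3 changes was not tested.

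In adipocyte-like nuclei 3 of 62 tested genes passed, against 2.54% of all genes of the class, a share near that background. Cntfr, the binding chain for ciliary neurotrophic factor, which pairs with gp130, was higher, with 17.4, 17.0 and 12.7 CPM in CKO libraries, against 9.37, 8.95 and 8.91 CPM in FLOX libraries (log2 fold change 0.72, adjusted p = 0.0407). Socs6 and Traf3, an adaptor in IL-17 and TNF receptor signalling, were lower, with log2 fold changes of -0.51 (adjusted p = 0.0449) and -0.57 (adjusted p = 0.0367). Under the alternatives the largest adjusted p was 0.128 for Cntfr, 0.163 for Socs6 and 0.127 for Traf3, so each call was lost in at least 1 of them. In whole tissue and in ASPC-, macrophage-, endothelial- and B-cell-like nuclei, 0 of 70, 58, 60, 56 and 53 tested genes passed.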

How the data were processed

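Single nuclei of 3 CKO and 3 FLOX libraries, 1 per replicate label, were isolated by flow cytometry with DAPI and sequenced as 3′ droplet libraries, per the labels' protocols. The deposited matrices hold raw UMI counts per gene and barcode, made with Cell Ranger 7.1 per the submitters' processing notes, which name mm10 and GRCh38; whether intronic reads were counted is not given in the sources used here. The lowest barcode total was 500 UMIs.

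A nucleus needed 500 or more genes and no more than 5% mitochondrial UMIs, and the highest Scrublet scores were removed at 0.8% per 1000 barcodes. Counts were clustered in scanpy 1.11.5 (3000 variable genes without the members, 40 components, 20 neighbours, Leiden resolution 1, leidenalg 0.10.2). Clusters were named from 17 marker lists. Naming each nucleus by its own marker score agreed in 87.3% of nuclei. UMI sums per class and library went into the quasi-likelihood test of edgeR 4.0.16 (TMM scaling, filterByExpr, robust fit; R 4.3.3), adjusted by Benjamini-Hochberg over all genes of a class, threshold 0.05. Each SE was derived from this test, as the absolute log2 fold change over the square root of its F statistic. DESeq2 1.42.0, other clusterings, filters, scalings and left-out libraries were alternatives. The scripts were tested on simulated data. With 3 against 3 libraries an exact permutation test cannot go below p = 0.1.

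Levels per library are given for members that passed a test, the 3 with the highest mean CPM per class, the 10 largest non-overlapping whole-tissue changes and a set list of cytokines and receptors; other named members, among them the lowest p-values of each class and the finer T-cell-like and macrophage-like clusters, were chosen after their values were seen. The members and lists were chosen with earlier results of these data known. Of 79 symbols, 62 had a RefSeq promoter. Some genes that passed or were examined are not reported here.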

Additional observations from a re-analysis of the deposited data

Results flagged for a closer look

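In 5 members the CKO and FLOX libraries were apart in opposite directions in different classes. The share of all genes with such opposite directions is not given here, so this count cannot be set against a background. The difference between classes was not tested, and none of these members passed the test within the classes named. Values are log2 fold changes of CKO over FLOX. Il34 was 0.48 in adipocyte-like and -0.44 in ASPC-like nuclei, a difference of 0.92. Il17rb, the IL-25 receptor chain, was 0.50 in adipocyte-like and -0.71 in ASPC-like nuclei, a difference of 1.21. Il20rb, a chain of the IL-20 receptors, was -0.32 in adipocyte-like nuclei, and it was 0.15 in ASPC-like, 0.25 in macrophage-like and 0.22 in endothelial-like nuclei, differences of 0.47, 0.57 and 0.55. Il15ra was -0.55 in T-cell-like nuclei, and it was 0.27 in adipocyte-like, 0.35 in ASPC-like and 0.44 in macrophage-like nuclei, differences of 0.81, 0.89 and 0.99. Il7r was 0.75 in B-cell-like and -0.47 in macrophage-like nuclei, a difference of 1.22. Within the Atp6v0d2-led macrophage-like cluster, Il7r had the opposite direction, at 0.26. That cluster made up 16.1, 35.4 and 19.1% of the class in CKO libraries, against 50.1, 43.8 and 39.9% in FLOX libraries. The part of these shares in the value of the class was not tested.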

How the results depend on the processing

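With all choices as reported, 0 members passed in whole tissue and in adipocyte-, ASPC-, endothelial- and B-cell-like nuclei, 1 in macrophage-like and 6 in T-cell-like nuclei. Counts of members called moved with the test and the filter. DESeq2 gave 19 in whole tissue (17.7% of all genes), 2 in ASPC-like (1.33%) and 2 in macrophage-like nuclei (3.49%). With no filter on low counts there were 3 in ASPC-like, 7 in macrophage-like, 1 in endothelial-like and 1 in B-cell-like nuclei. The share of all genes called without the filter is not given here, so these counts cannot be set against it. Summing adipose classes only gave 3 in whole tissue (1.56% of all genes), and classes by marker score gave 0 in macrophage-like and 1 in B-cell-like nuclei. At Leiden resolution 2, where the T-cell-like class kept only its Lef1-led nuclei, 0 members passed in T-cell-like and 0 in macrophage-like nuclei. Settings added after seeing the data gave 2 in the Gzma-led T-cell-like nuclei, 0 in the F13a1-led and 0 in the Atp6v0d2-led macrophage-like clusters, and 0 with the unnamed adipocyte cluster. Leaving out 1 library in turn gave 0 to 20 members in whole tissue, 0 to 1 in adipocyte-like, 0 to 2 in macrophage-like and 2 to 7 in T-cell-like nuclei. Doublets kept, library totals alone and nuclei of at least 1000 genes left every class count within 1.5 times.

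With the replicate number as a block, 9 members passed in whole tissue, 0 in macrophage-like and 5 in T-cell-like nuclei, and 0 in the other classes. The share of all genes called with the block is not given here. In whole tissue that share was 0.0415% as reported and 17.4% without CKO2, so the 9 members cannot be set against a background. Same-numbered libraries did not deviate together (correlations of -0.12 to 0.17 over genes), so the numbers were not treated as pairs.

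Some directions changed. In whole tissue, summing adipose classes only gave log2 fold changes of 0.030 for Il34, -0.31 for Il2, 0.41 for Il1b, -0.57 for Il7r and -0.0072 for Il6st, whose value was also -0.0053 without the filter and -0.0014 with the block. Without single libraries, whole-tissue values ran from -0.21 to 0.25 for Il4, -0.24 to 0.19 for Il5, -0.011 to 0.66 for Il6, -0.85 to 0.017 for Il1b, -0.086 to 0.075 for Il6st and -0.020 to 0.28 for Il1r1. Il16 in adipocyte-like nuclei was -0.41 with the unnamed cluster, and Il7r in macrophage-like nuclei 0.26 in the Atp6v0d2-led cluster. In T-cell-like nuclei at resolution 2, Il18r1 was 0.23 and Il6st -0.047. The cause of these changes was not tested. Depth limits what can be said of the rare cytokines and of classes with few nuclei.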
